A study of Mus musculus with 12 samples.

Results

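The genes described are 28 mouse genes of cholesterol synthesis and sterol control, taken by symbol from a list, out of 54356 genes summed in the tables. All 28 passed the filter on low counts and are among the 16043 genes tested. They comprise 7 enzymes of the mevalonate stage, 11 enzymes of squalene and sterol ring formation, 4 genes of sterol sensing and 6 genes of sterol transport and the liver X receptor (LXR) arm. Across these roles, 21 are targets of the sterol regulatory element-binding proteins (SREBPs) and 4 are LXR targets (Abca1, Abcg1, Mylip and Srebf1). The samples are 12 RNA-seq libraries of primary mouse neural stem cells, 3 each from wild type at 3 h, labelled Chd5-/- at 3 h, wild type at 48 h and labelled Chd5-/- at 48 h. All 12 were under the neural differentiation treatment: medium with N-2, EGF and FGF2 was exchanged for neurobasal medium with B-27, and the times are taken here as counted from that exchange. No group was left in the stem cell medium. The Chd5-/- allele is not described in the labels, which also name no separate cultures or animals behind the replicate numbers, so p-values measure only the spread between these samples, which may be technical.

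Cells build cholesterol from acetyl-CoA through mevalonate, isoprenoid diphosphates, squalene and lanosterol. When sterols in the endoplasmic reticulum are low, SCAP escorts SREBP to the Golgi, where it is cleaved and its released domain switches on nearly every enzyme of the route; when sterols are high, INSIG holds the complex back. LXRs are nuclear receptors switched on by oxysterols, and their targets export cholesterol, so the SREBP and LXR arms answer sterol load in opposite senses. Within the brain most cholesterol is made locally, since the blood-brain barrier keeps out that of plasma lipoproteins.

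Promoters are described because the SREBP targets moved together in the libraries described below. Whether promoter motifs have a part in that was not tested. RefSeq windows on GRCm38.p6, 250 bases before to 50 after an annotated start, were matched for 23 of the 28 genes, among them 17 of the 21 SREBP targets and 3 of the 4 LXR targets. On both strands 10 motif spellings were searched. The relaxed sterol element TCACCNNAC was in 4 SREBP targets (Hmgcs1, Nsdhl, Hsd17b7 and Insig1), against 3.53% of 27025 genes, and the tighter TCACNCCAC was in Hmgcs1 alone of the 28 genes, against 1.44%. The full sterol element, with every letter set, was in none (0.0999% of genes), and CACCCCAC, which overlaps the sterol spellings, was in Hmgcs1 and Acat2 (3.3%). A further relaxed spelling, TCACNCNAC, was in Hmgcs1 and Nsdhl (3.15%). The CCAAT box was in 16 of the 17 SREBP targets against 41.1% of genes, and the GC box GGGCGG was in 16 of 17 against 38.2%. Neither was particular to SREBP targets: of the 3 matched LXR targets, 2 held the CCAAT box and 3 the GC box. The shares are over all genes with a window, whether or not they were tested here. The E-box CACGTG was in 4 SREBP targets and also in Abca1 and Scap (8.09%). The LXR direct repeat, in a strict and a looser spelling, was in no matched window of the 28 genes (0.0148% and 0.0851% of genes). Both spellings fix every letter of the repeated unit. A repeat with other letters would thus be missed, also in the Abca1 stretch below. A match is a description of letters, not a shown site.

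The stretches below are shown because 3 of them are SREBP targets with both a sterol element match and a large difference described later, and Abca1 is the LXR-driven exporter with the more reads. Each is written 5′ to 3′ on the gene's strand and begins and ends before the RefSeq start. Hmgcs1 and Abca1 end at its base -1, Insig1 at -50 and Hsd17b7 at -37, where base -1 is the last before the start. Capitals mark TCACCNNAC matches, the CCAAT box, read here as ATTGG, and CACGTG.
Hmgcs1, chr13:119690101-119690350, plus strand: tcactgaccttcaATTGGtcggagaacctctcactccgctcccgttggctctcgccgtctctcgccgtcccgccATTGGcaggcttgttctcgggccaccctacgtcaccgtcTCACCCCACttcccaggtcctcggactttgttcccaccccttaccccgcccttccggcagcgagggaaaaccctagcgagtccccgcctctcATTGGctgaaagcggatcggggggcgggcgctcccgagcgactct
Insig1, chr5:28071162-28071362, plus strand: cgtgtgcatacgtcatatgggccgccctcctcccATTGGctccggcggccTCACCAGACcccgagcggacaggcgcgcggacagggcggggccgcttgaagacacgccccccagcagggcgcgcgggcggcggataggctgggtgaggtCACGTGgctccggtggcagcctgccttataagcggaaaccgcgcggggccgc
Hsd17b7, chr1:169969242-169969408, minus strand: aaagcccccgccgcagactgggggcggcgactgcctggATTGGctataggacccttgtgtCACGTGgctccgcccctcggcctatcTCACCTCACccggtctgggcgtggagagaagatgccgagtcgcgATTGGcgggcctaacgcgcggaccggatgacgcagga
Abca1, chr4:53159896-53160145, minus strand: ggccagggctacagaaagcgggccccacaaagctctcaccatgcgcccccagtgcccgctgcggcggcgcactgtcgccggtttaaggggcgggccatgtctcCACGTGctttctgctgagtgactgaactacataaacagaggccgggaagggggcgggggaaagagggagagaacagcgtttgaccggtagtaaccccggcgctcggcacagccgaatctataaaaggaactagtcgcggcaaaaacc
Hmgcs1 holds 3 copies of ATTGG around 1 sterol match, Insig1 and Hsd17b7 hold the sterol match and CACGTG together, and Abca1 holds CACGTG with no sterol match.

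Reads in genes ranged from 14094783 to 18674578 per library. Levels below are in CPM, counts scaled to a common library size, on library sizes scaled by the trimmed mean of M-values (TMM). Chd5 ranged from 2.97 to 7.06 CPM over the 12 libraries; its log2 difference, labelled Chd5-/- minus wild type, was 0.61 at 3 h (adjusted p = 0.257) and -0.66 at 48 h (adjusted p = 0.467) by edgeR's quasi-likelihood test with Benjamini-Hochberg adjustment, so the level of its transcripts does not check the labels. Neural stem cell markers were abundant in every library (summed level 4790 to 9281 CPM). Summed markers of microglia reached 2.49 CPM and those of endothelium 10.4 CPM at most. A set of 3 libraries stood apart from the others of their groups: wild-type replicate 1 at 3 h and replicate 2 of both genotypes at 48 h. In wild-type replicate 1 at 3 h, ribosomal protein genes took 13.0% of reads against at most 3.6% elsewhere. In both replicates 2 at 48 h, the summed level of 10 cycling-cell markers was far above that of replicates 1 and 3. Results are therefore given with all 12 libraries and without these 3, and in bulk RNA fewer cells of a type and less RNA per cell cannot be told apart.

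TPM, transcript abundances per length scaled to the same total in every library, is the only scale here on which different genes are compared. On it some of the SREBP-driven enzymes were among the highest of the 28. In the 3 labelled Chd5-/- libraries at 3 h, which lay close together, Hmgcs1, the synthase that makes HMG-CoA, stood at 345 ± 14.6 TPM (SD, n = 3) and Fdps, which makes farnesyl diphosphate, at 335 ± 13.0 TPM. These neighbours in the order did not differ beyond their spread. Msmo1, a sterol methyl oxidase, followed at 291 ± 12.1 TPM, and Dhcr7, the last reductase of 1 branch, at 251 ± 19.2 TPM. Short transcripts weigh more per read on this scale, so these places may depend on them. In replicate 1 of this group 87 Dhcr7 reads lay on a 230-base transcript and 455 Msmo1 reads on a 342-base transcript. There Dhcr7 had 2098 reads and 241.5 TPM, and Sqle, squalene epoxidase, had 10749 reads and 133.9 TPM. Of the LXR arm, Abca1, Mylip, Abcg1 and the receptor gene Nr1h3 were far lower than the enzymes. The receptor gene Nr1h2 and the LXR target Srebf1 were not, at means of 63.6 and 24.06 TPM in labelled Chd5-/- at 3 h. Abca1, a cholesterol exporter, stood at 0.823 ± 0.434 TPM there. Mylip, a ligase that marks lipoprotein receptors for degradation, was at 0.508 TPM and Abcg1, a second exporter, at 0.0362 TPM, both as means of the same 3 libraries.

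**Figure D1:**
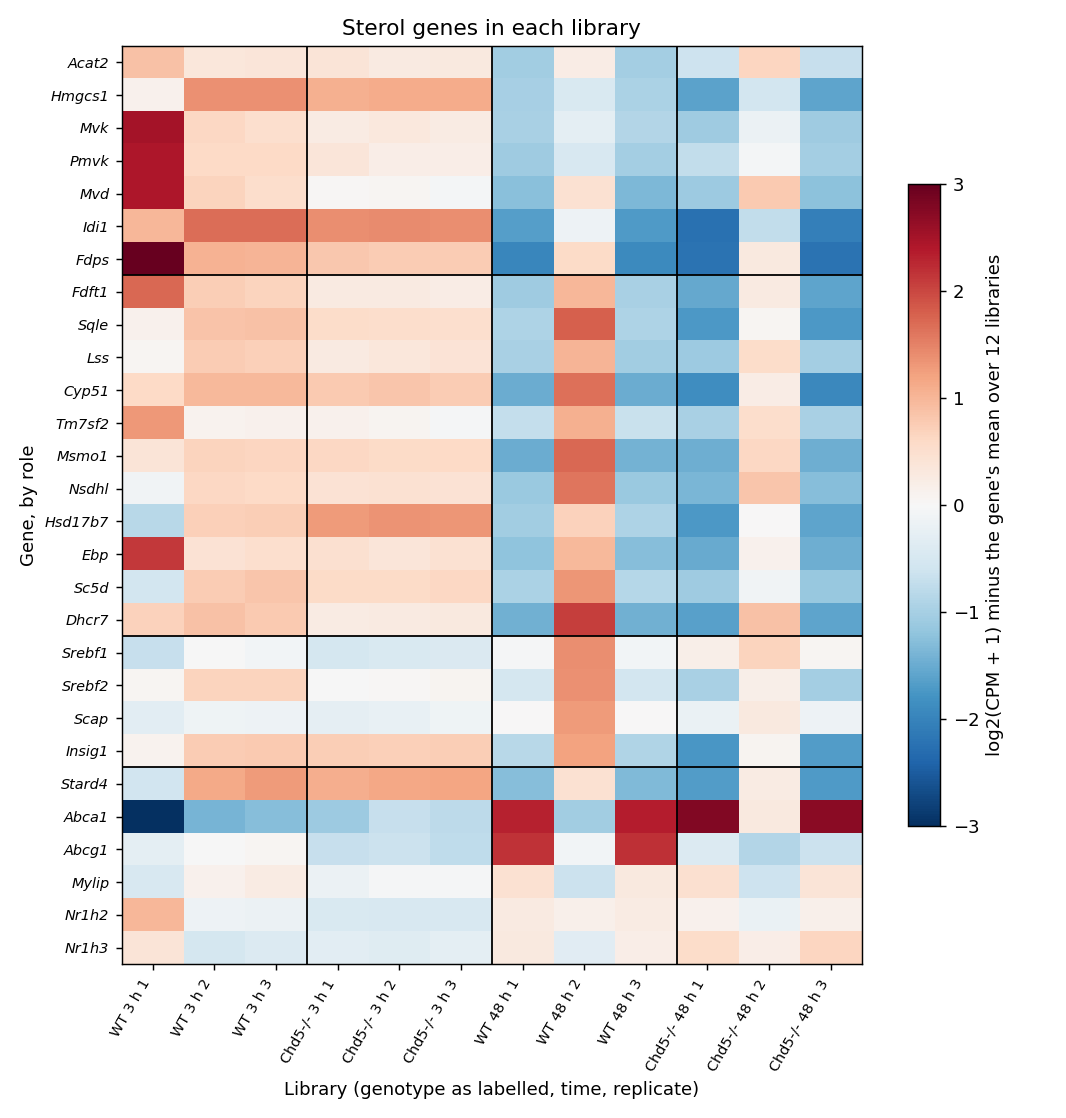
Level of each of the 28 genes in each library, as log2(CPM + 1) minus the gene's mean over the 12 libraries, with the colour scale ending at -3 and 3; lines separate the 4 groups and the 4 roles. Most synthesis enzymes are above their mean at 3 h and below it in replicates 1 and 3 at 48 h, while replicate 2 of both genotypes at 48 h differs from the other 2.

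From 3 h to 48 h the synthesis genes were lower at both stages of the route. With all 12 libraries, 4 of the 28 genes fell and 2 rose in wild type, against 22.9% of all tested genes called (10.1% lower, 12.7% higher). For labelled Chd5-/-, 3 fell and 0 rose, against 22.1% (8.03% lower, 14.1% higher). The log2 difference was negative for all 21 SREBP targets in both genotypes, with a median of -0.58 in wild type and -1.0 in labelled Chd5-/-, beside 0.09 and 0.04 over all tested genes. Without the 3 libraries, all 21 SREBP targets fell in both genotypes. The median was then -2.0 for the mevalonate enzymes and -1.81 for the squalene and ring enzymes in wild type, and -1.41 and -1.95 in labelled Chd5-/-; the stages were not tested against each other. Over the 21 targets the medians were -1.81 and -1.95, beside 0.02 and -0.00 over all tested genes. Of all tested genes, 76.0% were then called in wild type (38.4% lower, 37.6% higher) and 79.0% in labelled Chd5-/- (40.1% lower, 38.9% higher). With the length offset added these shares were 61.9% and 67.4%, and all 21 SREBP targets still fell in both genotypes. Groups of 3 did not overlap for 7 of the 28 genes lower in wild type (16.8% of all tested genes) and 2 higher (20.9%), and for 12 lower (32.4%) and 4 higher (32.2%) in labelled Chd5-/-. The comparisons in time share libraries with the comparisons of genotype below.

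Hmgcs1 (chr13:119690379-119708260, plus strand, GRCm38) stood at 789, 1850 and 1866 CPM in wild-type replicates 1 to 3 at 3 h, and at 359, 521 and 373 CPM at 48 h. The labelled Chd5-/- libraries went from 1505, 1557 and 1571 CPM to 234, 492 and 241 CPM. In both genotypes every 48 h library was below every 3 h library. The log2 difference with all 12 libraries was -1.85 (SE 0.40, adjusted p = 0.0108) in wild type and -2.26 (SE 0.40, adjusted p = 0.00378) in labelled Chd5-/- by edgeR's quasi-likelihood test with Benjamini-Hochberg adjustment. Hmgcs1 without the 3 libraries was 5.25-fold lower in wild type and 6.66-fold lower in labelled Chd5-/-. Idi1 (chr13:8885501-8892451, plus strand), the isomerase of the isoprenoid unit, showed the same order: 312, 498 and 501 CPM at 3 h against 49.3, 141 and 47.5 CPM at 48 h in wild type. Labelled Chd5-/- went from 410, 418 and 416 CPM to 32.5, 92.9 and 37.0 CPM. Its log2 difference was -2.47 (SE 0.52, adjusted p = 0.00967) in wild type and -2.94 (SE 0.53, adjusted p = 0.00388) in labelled Chd5-/-, by the same edgeR test. Idi1 shares a stretch of identical sequence with the copy Gm13502, between which reads could be split.

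Mvk and Pmvk, the kinases that phosphorylate mevalonate, also fell in wild type with all 12 libraries. Mvk stood at 299, 80.1 and 74.2 CPM at 3 h and at 26.0, 42.2 and 27.7 CPM at 48 h. Its log2 difference was -2.24 (SE 0.52) with an adjusted p of 0.0149 by edgeR's quasi-likelihood test. Pmvk stood at 227, 63.4 and 64.0 CPM and then at 19.4, 29.5 and 20.1 CPM, with a log2 difference of -2.36 (SE 0.50) and an edgeR adjusted p of 0.00982. The groups did not overlap for either gene, and replicate 1 at 3 h, whose reads lay on shorter transcripts (read-weighted mean length 1806 bases against at least 3042 elsewhere), was the highest library for both. Leaving out the 3 libraries that stood apart, the fall was 2.96-fold for Mvk, against 4.72-fold with all 12, and 3.33-fold for Pmvk, against 5.14-fold. Neither passed in labelled Chd5-/- with all 12 libraries, although the 3 h values of Mvk (61.9, 65.1 and 62.2 CPM) were all above those at 48 h (24.3, 45.9 and 24.2 CPM). Fdps, from 1874, 463 and 459 CPM to 57.9, 339 and 59.5 CPM in wild type, did not pass with all 12 libraries and was 8.11-fold lower without the 3. Mvd, the decarboxylase, went from 43.9, 44.9 and 41.5 CPM to 19.8, 74.4 and 17.8 CPM in labelled Chd5-/-, where replicate 2 at 48 h was above all of the 3 h libraries. Acat2, the cytosolic thiolase that joins acetyl-CoA units, shares near-identical stretches with Acat3 and with Tcp1, whose median of 6471 reads a library exceeds that of Acat2 (1346 reads), so reads could be split between them; its replicate 2 at 48 h stood at 113 CPM in labelled Chd5-/- against 46.6 and 44.0 CPM in replicates 1 and 3.

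For the 11 enzymes of squalene and sterol ring formation, the wild-type groups of 3 overlapped in time, with replicate 2 at 48 h above replicates 1 and 3. In labelled Chd5-/- 5 of the 11, Sqle, Cyp51, Hsd17b7, Ebp and Sc5d, were lower in every 48 h library than in every 3 h library. Sqle (chr15:59315077-59331192, plus strand), squalene epoxidase, stood at 447, 750 and 759 CPM at 3 h in wild type and at 216, 1432 and 215 CPM at 48 h. Labelled Chd5-/- went from 601, 597 and 581 CPM to 123, 428 and 123 CPM. The wild-type groups overlapped and the labelled Chd5-/- groups did not. Cyp51, lanosterol demethylase, was at 524, 685 and 679 CPM and then at 122, 1090 and 123 CPM in wild type. It went from 596, 617 and 593 CPM to 94.4, 405 and 90.9 CPM in labelled Chd5-/-. Dhcr7 stood at 159, 181 and 172 CPM and then at 35.4, 417 and 35.8 CPM in wild type, so that replicate 2 was the highest of the 6 libraries and the other 48 h libraries were the lowest. None of the 11 passed in wild type with all 12 libraries. Only Hsd17b7 did in labelled Chd5-/-, a reductase that acts during removal of the sterol methyl groups.

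Hsd17b7 (chr1:169949535-169969241, minus strand) went from 132, 138 and 135 CPM at 3 h to 15.5, 54.2 and 17.2 CPM at 48 h in labelled Chd5-/-. In wild type it stood at 29.8, 88.7 and 90.1 CPM and then at 25.3, 86.7 and 27.8 CPM. The groups did not overlap in labelled Chd5-/- and overlapped in wild type. The log2 difference in labelled Chd5-/- was -2.22 (SE 0.64) with an adjusted p of 0.0303 by edgeR's quasi-likelihood test. The fall without the 3 libraries was 8.44-fold in labelled Chd5-/- and 3.47-fold in wild type. The other ring enzymes, Fdft1 (squalene synthase), Lss (lanosterol synthase), Tm7sf2, Msmo1, Nsdhl, Ebp and Sc5d, fell in both genotypes without the 3 libraries. Fdft1 overlaps Ctsb on the opposite strand and Tm7sf2 overlaps Vps51 on its own strand; the sources used here do not say whether strand entered the quantification.

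The sensing genes divided. Insig1 (chr5:28071363-28078662, plus strand), the retention factor and itself an SREBP target, stood at 245, 388 and 394 CPM at 3 h and 129, 531 and 123 CPM at 48 h in wild type. In labelled Chd5-/- it went from 382, 378 and 383 CPM to 67.3, 242 and 71.5 CPM. Every 48 h library of labelled Chd5-/- was below its 3 h libraries, while in wild type replicate 2 at 48 h was the highest. Srebf2 (chr15:82147181-82205379, plus strand), the SREBP gene chiefly tied to cholesterol synthesis, was at 618, 945 and 942 CPM and then at 410, 1520 and 404 CPM in wild type. For labelled Chd5-/- it was at 589, 600 and 624 CPM and then at 300, 664 and 290 CPM, with replicate 2 again above the 3 h libraries. Scap, the escort, stood at 123 to 138 CPM in wild type at 3 h and at 152, 368 and 153 CPM at 48 h, where all 3 libraries were higher than at 3 h. Stard4, a sterol carrier, stood at 54.8, 180 and 199 CPM and then at 33.0, 113 and 32.4 CPM in wild type. None of these 4 passed in time with all 12 libraries.

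**Figure D2:**
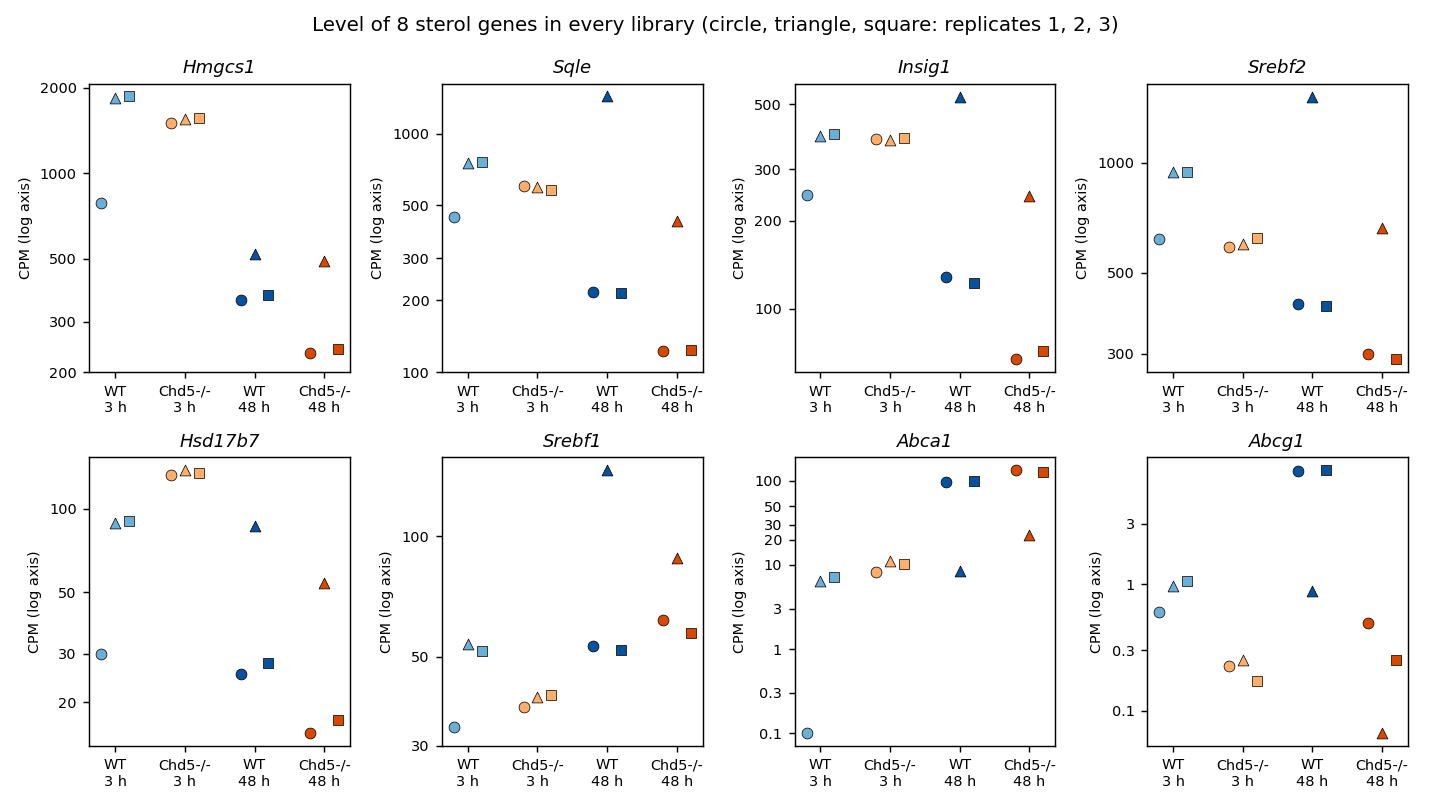
Level in CPM (log axis) of 8 of the genes in every library, with circle, triangle and square for replicates 1, 2 and 3 and colours for the 4 groups. At 48 h the triangles of both genotypes lie above the other 2 libraries for Hmgcs1, Sqle, Insig1, Srebf2, Hsd17b7 and Srebf1 and below them for Abca1 and Abcg1.

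The exporters of the LXR arm moved the other way. Abca1 (chr4:53030787-53159895, minus strand) stood at 0.101, 6.38 and 7.10 CPM at 3 h in wild type, the first being 1 read, and at 95.9, 8.43 and 99.8 CPM at 48 h. Labelled Chd5-/- went from 8.22, 11.2 and 10.4 CPM to 132, 22.8 and 126 CPM. Every 48 h library was above every 3 h library in both genotypes, with replicate 2 nearest to the 3 h values. The log2 difference with all 12 libraries was 3.88 (SE 1.16, adjusted p = 0.0359) in wild type and 3.24 (SE 1.12, adjusted p = 0.0606, not passed) in labelled Chd5-/- by edgeR's quasi-likelihood test with Benjamini-Hochberg adjustment. The rise without the 3 libraries was 14-fold in wild type (adjusted p = 5.21e-13) and 12.8-fold in labelled Chd5-/- (adjusted p = 5.45e-14), by the same edgeR test.

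Abcg1 (chr17:31057675-31117988, plus strand) rested on few reads: 6, 17 and 19 reads at 3 h in wild type and 129, 13 and 140 reads at 48 h. That is 0.608, 0.968 and 1.05 CPM followed by 7.88, 0.877 and 7.95 CPM. Replicate 2 at 48 h lay within the range of the 3 h libraries and the other 48 h libraries above it. Abcg1 rose in wild type with all 12 libraries, by 2.64 on the log2 scale (SE 0.75, adjusted p = 0.0304, edgeR's quasi-likelihood test). In labelled Chd5-/- it stood at 4, 4 and 3 reads at 3 h and 8, 1 and 4 reads at 48 h, and did not pass with or without the 3 libraries. The receptor genes showed smaller differences. Nr1h2, which encodes LXR beta, stood at 138, 61.7 and 60.4 CPM and then at 82.9, 76.7 and 81.8 CPM in wild type, and the sign of its difference turned from lower to higher without replicate 1 at 3 h (log2 difference 0.36). Nr1h3, which encodes LXR alpha, had 5 to 30 reads in every library, passed in neither genotype with all 12 libraries and rose in both without the 3. Mylip stood at 1.62, 3.02 and 3.33 CPM at 3 h in wild type and at 4.03, 1.35 and 3.52 CPM at 48 h, with overlap. Srebf1 (chr11:60199089-60222581, minus strand), an LXR target that encodes the SREBP tied chiefly to fatty acid synthesis, rose in time without the 3 libraries in labelled Chd5-/- (log2 difference 0.57) and not in wild type (-0.05).

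The count of calls in time turned on single libraries. In wild type 6 of the 28 genes passed with all 12 libraries, 17 without wild-type replicate 2 at 48 h (28.3% of all tested genes), and 2 without wild-type replicate 1 or 3 at 48 h (8.76% and 8.8%). In labelled Chd5-/- 3 passed, and the count was 9 without wild-type replicate 1 at 3 h (43.5%), 10 without wild-type replicate 2 at 48 h (27.9%) and 7 without labelled Chd5-/- replicate 2 at 48 h (25.1%). Idi1 and Pmvk in wild type and Hmgcs1 and Idi1 in labelled Chd5-/- passed whichever library was left out. Hmgcs1 and Mvk in wild type lost their calls without wild-type replicate 1 at 48 h (adjusted p = 0.0511 and 0.0631, edgeR) or replicate 3 (adjusted p = 0.0502 and 0.0615, edgeR). Abca1 in wild type kept its call without wild-type replicate 1 at 3 h or either replicate 2 at 48 h, and lost it without any of the other 9 libraries (adjusted p from 0.0515 to 0.0966, edgeR). Abcg1 in wild type lost it without any wild-type library at 3 h, labelled Chd5-/- replicate 1 at 3 h, or wild-type replicate 1 or 3 at 48 h (0.0501 to 0.1). Hsd17b7 in labelled Chd5-/- lost it without any labelled Chd5-/- library other than replicate 2 at 48 h (0.075 to 0.119).

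Replicate 2 at 48 h set the sterol genes apart in both genotypes. It was above replicates 1 and 3 in both for 23 of the 28 genes, against 34.0% of all tested genes, and below them in both for 5 (Abca1, Abcg1, Mylip, Nr1h2 and Nr1h3), against 34.9%. At 2-fold or more, 18 were higher, against 8.21% of all tested genes, and 3 lower, against 9.48%. Over the 21 SREBP targets, replicate 2 was a median of 4.08 times the mean of replicates 1 and 3 in wild type, from 1.42 for Hmgcs1 to 11.7 for Dhcr7. The labelled Chd5-/- median was 3.43, from 1.81 for Pmvk to 5.76 for Fdps. Abca1 was 11.6-fold lower in replicate 2 in wild type and 5.68-fold lower in labelled Chd5-/-. Hmgcs1 and Idi1 stayed below their 3 h levels even in replicate 2, while Dhcr7 in wild-type replicate 2 was 2.36 times the mean of wild-type replicates 2 and 3 at 3 h. These ratios are between libraries and have no replicate of their own.

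The cell-state markers differed between the same libraries. Summed over 10 cycling-cell markers, all with reads in every library, the level ran from 124 to 2176 CPM in wild type at 48 h and from 133 to 1989 CPM in labelled Chd5-/-, with replicate 2 the highest in each. As a mean of log2(CPM + 1), the cycling markers stood at 3.47, 7.45 and 3.53 in wild type at 48 h and at 3.55, 7.24 and 3.58 in labelled Chd5-/-. The 21 SREBP targets on that scale stood at 5.72, 7.71 and 5.73 in wild type and at 5.43, 7.08 and 5.43 in labelled Chd5-/-, against 7.64 to 7.69 and 7.41 to 7.42 at 3 h. The 4 LXR targets stood at 4.46, 3.14 and 4.43 in wild type and at 3.99, 3.10 and 3.86 in labelled Chd5-/-. The 8 astrocyte markers stood at 7.63, 5.36 and 7.63 in wild type at 48 h, and at 7.60, 6.0 and 7.60 in labelled Chd5-/-. Within each genotype at 48 h, SREBP targets were thus high where cycling markers were high, and Abca1 and Mylip where astrocyte markers were high. Abcg1 was so in wild type, but had only 8, 1 and 4 reads in labelled Chd5-/-. Srebf1, the other LXR target, went the opposite way, with replicate 2 at 2.78 times the mean of replicates 1 and 3 in wild type and 1.48 times in labelled Chd5-/-. With Srebf1 left out, the LXR targets averaged 4.03, 1.79 and 4.0 in the wild-type replicates and 3.33, 1.98 and 3.19 in those of labelled Chd5-/-. The part of cell state in the sterol gene levels was not tested.

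**Figure D3:**
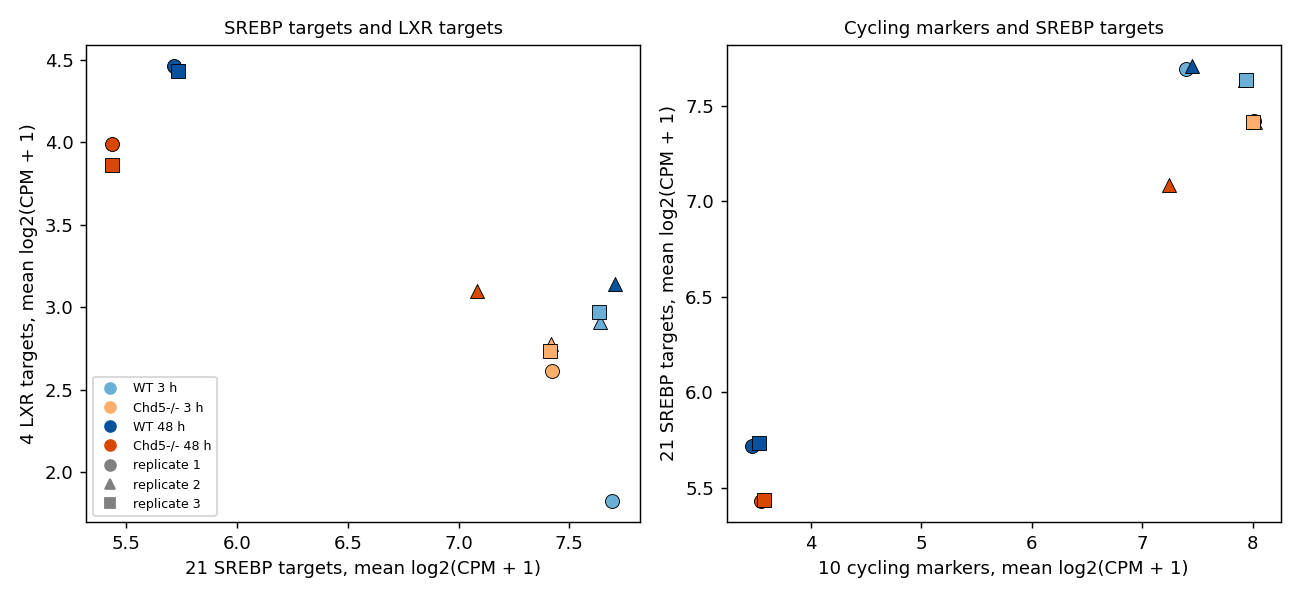
Mean log2(CPM + 1) per library: the 4 LXR targets against the 21 SREBP targets (left), and the SREBP targets against 10 cycling-cell markers (right); colour gives the group and shape the replicate. Replicates 1 and 3 of both genotypes at 48 h lie at low SREBP and cycling levels, and replicate 2 of each (dark triangles) lies near the 3 h libraries.

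At 3 h none of the 28 genes differed between labelled Chd5-/- and wild type with all 12 libraries, against 6.71% of all tested genes called by edgeR (3.48% lower, 3.24% higher). An unadjusted p under 0.05 was reached by 4 (Abcg1, Mvk, Nr1h2 and Pmvk). The share of all tested genes at that unadjusted threshold was not worked out. DESeq2, which gave an adjusted p for 22 of the 28 genes, and limma-voom also called 0. The groups of 3 did not overlap for 8 genes lower in labelled Chd5-/- (21.1% of all tested genes) and for 2 higher (23.9%), Hsd17b7 and Abca1. Without the 3 libraries, which leaves 2 wild-type libraries at 3 h, 17 of the 28 were lower and 2 higher. Of all tested genes 52.5% then passed (25.3% lower, 27.2% higher). Of the 21 SREBP targets 14 were lower and 1 higher, with a median log2 difference of -0.24 beside -0.00 over all tested genes.

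After that of Abcg1, the largest of these differences at 3 h was that of Srebf2. Wild-type replicates 2 and 3 held 945 and 942 CPM, against 589 to 624 CPM for the 3 labelled Chd5-/- libraries, a log2 difference of -0.64 (SE 0.03, adjusted p = 2.33e-09, edgeR's quasi-likelihood test without the 3 libraries). Wild-type replicate 1, at 618 CPM, lay within the labelled Chd5-/- range. Dhcr7 stood at 181 and 172 CPM against 117 to 122 CPM, a log2 difference of -0.56 (SE 0.04), and at 159 CPM in wild-type replicate 1, which also lay above all of the labelled Chd5-/- libraries. Hsd17b7 went against the other SREBP targets: it was 1.51-fold higher, at 132 to 138 CPM against 88.7 and 90.1 CPM, with 29.8 CPM in wild-type replicate 1. At the mevalonate stage 6 of 7 enzymes were lower, all but Acat2, and among the ring enzymes 7 of 11. Abcg1 was lower by 2.20 on the log2 scale (3 or 4 reads against 17 and 19), and Abca1 was 1.46-fold higher.

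The number of genes that differed at 3 h moved with the correction for transcript length. With an offset for each gene's effective length in each library and the 3 libraries left out, 10 of the 28 genes were lower and 1 higher, against 33.2% of all tested genes (15.7% lower, 17.5% higher). The 10 were Hmgcs1, Pmvk, Mvd, Fdps, Fdft1, Sqle, Cyp51, Dhcr7, Srebf2 and Abcg1, and the 1 was Hsd17b7; these 11 passed in the same direction under TMM, under relative log expression (RLE) factors (52.9% of all tested genes called) and under the length offset. Abca1 did not pass under the offset (log2 difference 0.95, adjusted p = 0.074, edgeR). Markers differed between the same groups. At 3 h 8 astrocyte markers summed to 621 to 653 CPM in labelled Chd5-/- against 1314 to 1630 CPM in wild type. The 8 fibroblast and mural markers summed to 567 to 600 CPM against 12.2 to 14.6 CPM, a sum that rested on few genes. Only 3 had reads in every labelled Chd5-/- library, against 5 in wild type, and Lum and Pdgfrb had 0 in labelled Chd5-/-. As a mean of log2(CPM + 1) the 8 stood at 1.23 to 1.41 against 0.87 to 1.02. The 9 neuron markers summed to 1204 to 1312 CPM against 238 to 646 CPM. Their part in the sterol gene differences was not tested.

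**Figure D4:**
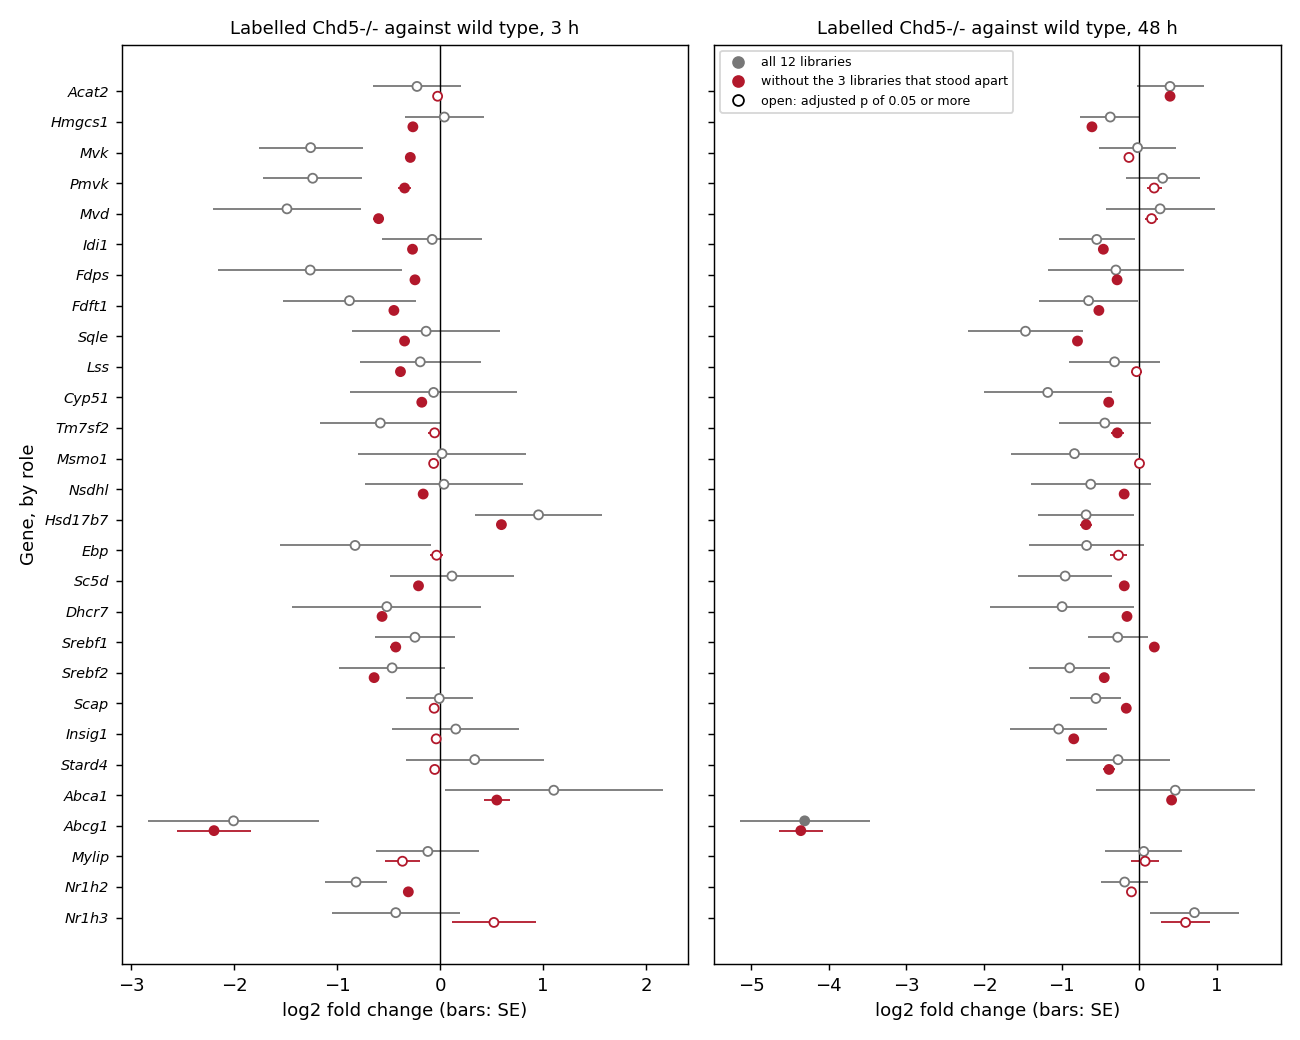
Log2 difference of each gene, labelled Chd5-/- minus wild type, at 3 h (left) and 48 h (right), with bars for the SE; grey uses all 12 libraries, red leaves out the 3 that stood apart, and filled points have an adjusted p under 0.05. With all 12 libraries Abcg1 at 48 h is the single filled point, and the red points have short bars because the remaining libraries of a group lie close together.

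At 48 h Abcg1 was the 1 gene of the 28 that differed between genotypes with all 12 libraries, against 2.74% of all tested genes called (1.21% lower, 1.53% higher). Its 7.88, 0.877 and 7.95 CPM in wild type compare with 0.495, 0.0668 and 0.252 CPM in labelled Chd5-/-. Every labelled Chd5-/- library was below every wild-type library, and within each replicate number the labelled Chd5-/- library was the lower. The log2 difference was -4.31 (SE 0.84, adjusted p = 0.0203, edgeR's quasi-likelihood test). The call was lost when any of 5 of the 6 libraries at 48 h was left out: the adjusted p was 0.0693 and 0.0724 without wild-type replicates 1 and 3, and 0.051, 0.0597 and 0.106 without labelled Chd5-/- replicates 1, 2 and 3. The adjusted p was 0.0699 by limma-voom and 0.137 with the length offset. Leaving out the 3 libraries gave 5.71e-08 by edgeR, at a 20.5-fold lower level. At 48 h, Abcg1 was thus far below its wild-type level in the same labelled Chd5-/- replicates 1 and 3 in which Abca1, the other exporter, stood at 132 and 126 CPM.

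The groups of 3 at 48 h overlapped for all of the SREBP targets; of the 28 genes 1 did not overlap and was lower, Abcg1 (10.9% of all tested genes), and 0 were higher (12.3%). With all 12 libraries their median log2 difference was -0.63 beside -0.02 over all tested genes, and it turned to 0.52 without wild-type replicate 2 and to -1.40 without labelled Chd5-/- replicate 2. Same-numbered 48 h libraries deviated together, with correlations of 0.559, 0.736 and 0.562. Replicates 1 and 3 correlated as closely across numbers, at 0.596 and 0.584, so the deviations pair only replicate 2. The replicate number was also fitted as a block within the 48 h libraries. Under that block 5 of the 28 genes were lower and 0 higher, against 8.82% of all tested genes (4.49% lower). These were Abcg1 (-4.32, adjusted p = 0.0106), Insig1 (-0.96, adjusted p = 0.0173), Hsd17b7 (-0.70, adjusted p = 0.0229), Fdft1 (-0.60, adjusted p = 0.0316) and Idi1 (-0.53, adjusted p = 0.0492) by edgeR's quasi-likelihood test. With the block fitted over all 12 libraries Abcg1 alone passed at 48 h (adjusted p = 0.0326), and the adjusted p was 0.475 for Insig1, 0.712 for Hsd17b7, 0.853 for Fdft1 and 0.747 for Idi1, by the same edgeR test. Within all 3 same-numbered pairs 18 of the 28 genes were lower in labelled Chd5-/-, against 26.9% of all tested genes, and 5 were higher, against 27.7%. The 5 were Mvd, Acat2, Abca1, Mylip and Nr1h3.

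Without the 3 libraries, which leaves 2 libraries a group at 48 h, 16 of the 28 genes were lower and 3 higher in labelled Chd5-/-, against 47.2% of all tested genes (21.6% lower, 25.6% higher). Of the SREBP targets 14 were lower and 1 higher, with a median of -0.28 beside 0.02. Insig1 was 1.80-fold lower (adjusted p = 5.49e-09, edgeR), at 67.3 and 71.5 CPM against 129 and 123 CPM. Sqle was 1.74-fold lower, at 123 CPM in both libraries against 216 and 215 CPM. Both were also lower in replicate 2, where Insig1 stood at 242 against 531 CPM and Sqle at 428 against 1432 CPM. Hmgcs1 was lower by 0.61 on the log2 scale (SE 0.04), at 234 and 241 CPM against 359 and 373 CPM. Srebf2 was 1.37-fold lower and Hsd17b7 1.61-fold lower. Acat2, the 1 SREBP target that was higher, stood at 46.6 and 44.0 CPM against 34.6 and 34.9 CPM, and its replicate 2 was also the higher in labelled Chd5-/- (113 against 85.0 CPM). Abca1 was 1.33-fold higher and Srebf1 1.14-fold higher. In the same libraries 9 neuron markers summed to 1200 and 1221 CPM in labelled Chd5-/- against 810 and 840 CPM. As a mean of log2(CPM + 1) they had the reverse order, 2.933 and 2.974 against 3.173 and 3.305. The 6 endothelial markers summed to 4.40 and 4.04 CPM against 9.77 and 8.80 CPM. Stmn2, Cdh5 and Cldn5 were at 0 reads in labelled Chd5-/- at 48 h. The part of these markers in the sterol gene differences was not tested.

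With the length offset added, 10 genes were lower and 1 higher at 48 h, against 26.8% of all tested genes (12.7% lower, 14.1% higher). Hmgcs1, Fdft1, Sqle, Cyp51, Hsd17b7, Dhcr7, Insig1, Srebf2, Stard4 and Abcg1 were lower and Acat2 was higher under each of TMM, RLE (47.0% of all tested genes called) and the offset. Abca1 then did not pass (log2 difference 0.31, adjusted p = 0.507, edgeR), nor did Srebf1 (0.35, adjusted p = 0.051). Sterol genes lower in labelled Chd5-/- under these 3 scalings at both times were Hmgcs1, Fdft1, Sqle, Cyp51, Dhcr7, Srebf2 and Abcg1.

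The test of whether the genotype difference itself differed between 48 h and 3 h called none of the 28 genes with all 12 libraries, against 0.231% of all tested genes by edgeR (0.0935% lower, 0.137% higher). Pmvk alone had an unadjusted p under 0.05, a threshold at which the share of all tested genes was not worked out. DESeq2, with an adjusted p for 22 of the 28 genes, and limma-voom called 0. Without the 3 libraries 8 were lower and 8 higher, against 40.4% of all tested genes (21.1% lower, 19.3% higher). Hsd17b7 turned from higher in labelled Chd5-/- at 3 h to lower at 48 h, a difference of -1.28 on the log2 scale (SE 0.08, adjusted p = 1.13e-07, edgeR's quasi-likelihood test). Insig1 differed at 48 h and not at 3 h, where it stood at 388 and 394 CPM against 378 to 383 CPM, and the difference of the differences was -0.81 (SE 0.05, adjusted p = 1.14e-07, edgeR). Srebf1 went the other way, from 53.8 and 51.8 CPM against 37.4 to 40.2 CPM at 3 h to 53.3 and 51.9 CPM against 61.7 and 57.4 CPM at 48 h. Its difference of differences was 0.63 (SE 0.07, adjusted p = 2.19e-05, edgeR). In replicate 2 at 48 h Srebf1 had the reverse order, 146 CPM against 88.1 CPM in labelled Chd5-/-. Under all 3 scalings the 48 h difference minus the 3 h difference was negative for Hmgcs1, Sqle, Hsd17b7 and Insig1 and positive for 5 genes, against 40.5% of all tested genes called with RLE and 21% with the offset (11.4% lower, 9.6% higher).

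Side by side, the 21 SREBP targets and the 4 LXR targets differed most plainly in time. The 4 LXR targets without the 3 libraries had a median log2 difference of 1.56 in wild type and 0.70 in labelled Chd5-/-, where the 21 SREBP targets had -1.81 and -1.95. The LXR medians with all 12 libraries were 1.75 and 0.58. Between genotypes the LXR median was -0.40 at 3 h and 0.13 at 48 h without the 3 libraries, while 5 further LXR targets, listed below, had medians of 0.79 and 0.64. In time, without the 3 libraries, the medians of those 5 were -0.31 in wild type and 0.19 in labelled Chd5-/-. The medians of the 4 LXR targets cover genes that went apart. In time without the 3 libraries, Abca1 and Abcg1 rose in wild type and Mylip and Srebf1 did not pass. In labelled Chd5-/- Abcg1 did not pass. Between genotypes at 48 h Abcg1 was far lower in labelled Chd5-/-, and Abca1 and Srebf1 were slightly higher without the 3 libraries. Mylip, at 4.03 and 3.52 CPM in wild type against 4.09 and 3.79 CPM, did not pass. No test over either list was made.

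Of the listed genes around the pathway, few passed between genotypes with all 12 libraries. Among 16 tested genes of esterification, hydroxylation and intracellular sterol transport, 2 were higher and 1 lower in labelled Chd5-/- at 3 h and 1 was lower at 48 h, against 3.24% of all tested genes higher and 3.48% lower at 3 h and 1.21% lower at 48 h. Gramd1b, a protein that carries sterol from the plasma membrane to the endoplasmic reticulum, stood at 28.6, 46.8 and 46.0 CPM in wild type at 3 h and at 7.32, 9.34 and 9.16 CPM in labelled Chd5-/-. At 48 h it stood at 48.9, 140 and 48.0 CPM against 20.6, 16.6 and 21.1 CPM. The groups did not overlap at either time, and the log2 difference was -2.23 at 3 h (adjusted p = 0.00985) and -2.03 at 48 h (adjusted p = 0.026) by edgeR's quasi-likelihood test with Benjamini-Hochberg adjustment. In time 7 of the 16 rose in wild type (12.7% of all tested genes) and 4 in labelled Chd5-/- (14.1%), and 0 were lower in either. Its relative Gramd1a rose by 1.78 (adjusted p = 0.00373) and 1.69 (adjusted p = 0.00266) on the log2 scale in the 2 genotypes, and Stard3, a late endosomal sterol protein, by 1.08 and 1.39 (adjusted p = 0.0115 and 0.00312), by the same edgeR test.

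In the neighbouring branches the counts in time depended on the libraries kept. Beside the list counts with all 12 libraries stand 12.7% of all tested genes higher and 10.1% lower in time in wild type, and 14.1% and 8.03% in labelled Chd5-/-. Of 15 SREBP-driven fatty acid genes, 2 rose and 0 fell in time in each genotype with all 12 libraries. Fads2, a fatty acid desaturase, rose by 0.89 (adjusted p = 0.0258) in wild type and 0.73 (adjusted p = 0.0496) in labelled Chd5-/- on the log2 scale, and Lpin1, a phosphatidate phosphatase, by 1.74 and 1.02 (adjusted p = 0.00274 and 0.0154), by edgeR. By contrast, 10 of the 15 fell and 3 rose in wild type without the 3 libraries, and 9 fell and 4 rose in labelled Chd5-/-, with medians of -0.49 and -0.29; in those fits 38.4% and 40.1% of all tested genes were lower. Of 11 isoprenoid branch genes, 1 fell in wild type, and 2 fell and 1 rose in labelled Chd5-/-. Leaving out the 3 libraries, 7 fell and 2 rose in wild type and 8 fell and 2 rose in labelled Chd5-/-, with medians of -0.50 and -0.59, the direction of the synthesis enzymes. Pggt1b, a subunit of a protein prenyltransferase, fell in both (-1.10 and -0.97, adjusted p = 0.00799 and 0.0106, edgeR). Of 11 genes of SREBP processing and sterol-driven degradation, 2 rose in wild type and 0 passed in labelled Chd5-/-. Of 5 further LXR targets, Smpdl3a rose and Arl4c fell in both genotypes: Smpdl3a by 1.86 and 1.38 (adjusted p = 0.00633 and 0.0156), and Arl4c by -1.05 and -1.71 (adjusted p = 0.0165 and 0.00161), by edgeR. None of these 4 lists had a gene that passed between genotypes at 3 h or 48 h with all 12 libraries, by edgeR. In the order fatty acid, isoprenoid, processing and further LXR genes, 3, 1, 1 and 2 had an unadjusted p under 0.05 at 3 h, and 1, 0, 0 and 2 at 48 h. These counts cannot be set against all tested genes, whose share at that unadjusted threshold was not worked out. Without the 3 libraries 6 of the 15 fatty acid genes were higher and 6 lower at 3 h, against 27.2% and 25.3% of all tested genes, and 11 were higher and 2 lower at 48 h, against 25.6% and 21.6%. Of the 5 further LXR targets 4 were then higher and 1 lower at each time, with medians of 0.79 at 3 h and 0.64 at 48 h.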

How the data were processed

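Per the submitters' processing notes, the authors quantified each library with Salmon; the sources used here do not give its version, index or strand setting. Per the file headers, the deposited tables give estimated counts and TPM for 140658 transcripts. Of these 140137 matched GENCODE M21 (GRCm38) and were summed to genes and rounded; unmatched transcripts held 0.135% to 0.181% of reads. Library preparation, per the labels' protocols, used TRIzol and the TruSeq Stranded mRNA kit. Reads in genes numbered 14094783 to 18674578 per library, which sets the counting error. Libraries of a group differed by more than sampling noise and were all counted. At 48 h replicates 1 and 3 exceeded that noise by little, with a chi-square per degree of freedom of 1.92 in wild type and 1.83 in labelled Chd5-/-. For pairs with replicate 2 it was at least 138.

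Genes passing filterByExpr (minimum count 10, minimum total 15) were fitted over all 4 groups with TMM scaling and edgeR 4.0.16's quasi-likelihood test in R 4.3.3. Benjamini-Hochberg adjustment ran over all 16043 genes, or 16489 without the 3 libraries, with a threshold of 0.05. The SE is the log2 fold change divided by the root of F. The code was tested on simulated data. Alternatives were DESeq2 1.42.0, limma 3.58.1 (voom), RLE factors, other filters, an effective length offset, fits with the compared groups alone, a replicate block, and leaving out libraries. The block within the compared groups, and RLE or the offset without the 3 libraries, were chosen after seeing the data. Deviations of same-numbered samples correlated at 48 h (0.559, 0.736 and 0.562) and not at 3 h (0.149, 0.075 and 0.054). At 48 h replicates 1 and 3 correlated as closely across numbers, at 0.596 and 0.584, so only replicate 2 was paired by its number. The labels do not say what the numbers mean.

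The text may name all 28 genes and, from each list around the pathway, the 3 with the smallest p. Genes and lists were chosen with earlier results of these data known, as were the 3 libraries left out. Near copies were sought at 95% identity over 300 bases; 7 of the 28 genes have one and 13 overlap another gene. Other sterol genes were not analysed here.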

Additional observations from a re-analysis of the deposited data

Results flagged for a closer look

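Hsd17b7 had opposite genotype differences at the 2 times. Without the 3 libraries that stood apart, it was higher in labelled Chd5-/- at 3 h and lower at 48 h, and the difference of the differences was -1.28 on the log2 scale by edgeR's interaction test (adjusted p = 1.13e-07); with the length offset added it was -1.05 (adjusted p = 0.000584). With all 12 libraries the interaction did not pass.

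Srebf1 turned the other way: lower in labelled Chd5-/- at 3 h and higher at 48 h, with an interaction of 0.63 (adjusted p = 2.19e-05, edgeR) without the 3 libraries. With the length offset the interaction was 0.66 (adjusted p = 0.0192, edgeR), while the separate differences no longer passed (adjusted p = 0.0535 at 3 h and 0.051 at 48 h). With all 12 libraries the interaction did not pass and had the opposite sign. The libraries left out went against the turn. Replicate 2 at 48 h held 146 CPM in wild type against 88.1 CPM, and wild-type replicate 1 at 3 h, at 33.4 CPM, lay below the labelled Chd5-/- libraries (37.4 to 40.2 CPM). The rule that picked these genes, a passed difference in opposite directions, was set on the fit without the 3 libraries after its values had been seen.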

How the results depend on the processing

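Depth limits Abcg1 and Nr1h3 most, with 1 to 140 and 5 to 30 reads per library. Leaving out the 3 libraries, alone, with RLE factors, or with the length offset, raised the count of the 28 genes called from 0 to 19, 20 and 11 at 3 h, from 1 to 19, 20 and 11 between genotypes at 48 h, from 6 to 26, 26 and 25 in time in wild type, from 3 to 26, 26 and 26 in time in labelled Chd5-/-, and from 0 to 16, 16 and 9 for the interaction; those fits have fewer samples per group. Leaving out 1 library at a time gave 0 to 1, 0 to 1, 2 to 17, 2 to 10 and 0 to 0 for the same 5 comparisons. At 48 h limma-voom, the length offset with all 12 libraries and a fit to the compared groups alone each gave 0 (Abcg1 adjusted p = 0.146 in the last, by edgeR). For the counts in time that follow, the share of all tested genes called was not worked out, so they cannot be set against it. The compared groups alone gave 0 in time in wild type and 12 in labelled Chd5-/-. In time in labelled Chd5-/- DESeq2 gave 7, of the 22 genes it gave an adjusted p, and limma-voom 5. The replicate block within the compared groups gave 5 at 48 h, 0 in time in wild type and 13 in labelled Chd5-/-. The block over all 12 libraries gave 8 in time in labelled Chd5-/-. Under that block Abca1 and Abcg1 lost their calls in time in wild type (adjusted p = 0.0736 and 0.0607, edgeR) and Fdps gained one (-3.10, adjusted p = 0.0428, edgeR). The SREBP median in time in wild type moved to -1.94 with the length offset and without the 3 libraries (-2.04 to -0.29 leaving out 1 library). In labelled Chd5-/- it moved to -1.95, -1.92 with RLE and -2.04 with the offset, without the 3 libraries (-1.93 to -0.85 leaving out 1).

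Signs turned without the 3 libraries alone, with RLE and with the offset for Hmgcs1 at 3 h (-0.27, -0.28 and -0.26), Nr1h2 in time in wild type (from -0.11 to 0.38, 0.41 and 0.66; -0.31 to 0.36 leaving out 1 library, the last without wild-type replicate 1 at 3 h) and, for the interaction, Srebf1 (0.63, 0.62 and 0.66) and Srebf2 (0.19, 0.19 and 0.22). Under the first 2 alone they turned for Nsdhl (-0.17 and -0.18) and Sc5d (-0.21 and -0.23) at 3 h, Srebf1 at 48 h (0.19 and 0.17), and Lss (0.35 and 0.35) and Dhcr7 (0.41 and 0.40) for the interaction. The cause was not tested. Genes were followed for the comparisons they passed in with all 12 libraries or without the 3, and a turned sign where neither setting passed was not counted.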
